A study of Rattus norvegicus with 63 samples.

Results

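The insulin-like growth factor (IGF) axis of the liver is described here by 7 of the 10411 genes on the array: Igf1, Ghr, Igfals, Igfbp1, Igfbp2, Igfbp3 and Igfbp4. They were taken by gene symbol, and where a gene had several probe sets the one that was brightest on average across the 63 arrays was read. Igf1, Ghr and Igfbp3 have 2 probe sets, and the dimmer one is given where it differs. The other 4 have 1 probe set each.

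In the liver, growth hormone acts through its receptor, encoded by Ghr, to raise transcription of Igf1, and hepatocytes secrete IGF-I into the blood. There IGF-I travels mostly in a ternary complex with IGFBP-3 and the acid-labile subunit encoded by Igfals, while IGFBP-1, IGFBP-2 and IGFBP-4 form smaller complexes. IGFBP-1 is known for a rapid rise in fasting and under cellular stress and for repression by insulin. In rat liver Igfbp3 is made mainly by non-parenchymal cells, whereas Igf1, Igfals and Igfbp1 are hepatocyte transcripts.

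The study asked how short-term profiles differ between classes of liver carcinogens. The livers came from male Wistar Hanover rats, 8 to 10 weeks old at assignment, each dosed daily by gavage with a compound or its vehicle. Each of the 21 groups holds 3 arrays. In the 15 compound groups the 3 animals were picked from 5 for visible changes in liver histology, so they are not a random draw. The values are log2 expression levels.

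Control set 1 received methylcellulose for 14 days and served 6 compounds. They were acetamide (AA, 3000 mg/kg per day, 14 days), dehydroepiandrosterone (DHEA, 600 mg/kg, 14 days), methylcarbamate (Mcarb, 400 mg/kg, 14 days), methapyrilene HCl (MPy, 60 mg/kg, 7 days), thioacetamide (TAA, 19.2 mg/kg, 7 days) and Wy-14643 (Wy, 60 mg/kg, 3 days). Cefuroxime (CFX, 250 mg/kg) and nifedipine (Nif, 3 mg/kg), both for 14 days, used methylcellulose set 2. Methylcellulose set 5 served diethylstilbestrol (DES, 10 mg/kg, 3 days), ethionine (ETH, 200 mg/kg, 14 days) and piperonylbutoxide (PBO, 1200 mg/kg, 3 days), and set 6 served phenobarbital sodium (PB, 14 days, dose not given in the labels). Corn oil was the vehicle of set 3 (7 days), used for C.I. Direct Black (CIDB, 146 mg/kg, 7 days) and dimethylnitrosamine (DMN, 4 mg/kg, 7 days), and of set 4 (14 days), used for cyproterone acetate (CPA, 100 mg/kg, 14 days). The labels give 14 days for every methylcellulose animal, whereas the study's methods describe controls matched in time, and this difference was not settled. By the labels, compound and shorter dosing time cannot be told apart for DES, PBO, Wy, MPy and TAA. AA, DES, DHEA, ETH, Mcarb, MPy, PB and PBO are classed as non-genotoxic carcinogens (NGC), CIDB and DMN as genotoxic carcinogens (GC), CFX and Nif as non-carcinogens (NC), and CPA, TAA and Wy are of undefined class.

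The upstream sequences of the 3 binding protein genes that carried most of the calls are shown first, because Igfbp1 and Igfbp3 lie next to each other on chromosome 14 with 0 annotated genes between them and yet moved differently. Each run is the 250 bases before the RefSeq start of the gene, 5′ to 3′ on its own strand, in build GRCr8: chr14:86261027-86261276 (plus strand) for Igfbp1, chr9:81864561-81864810 (plus strand) for Igfbp2 and chr14:86277945-86278194 (minus strand) for Igfbp3. Capitals mark matches to 5 motifs searched on both strands. They were the insulin response element core (CAAAACA), the cyclic AMP response element (TGACGTCA), the STAT5 site (TTCNNNGAA), the TATA box (TATAAA) and a site of the hepatocyte factor HNF1. No match overlapped another.
Igfbp1: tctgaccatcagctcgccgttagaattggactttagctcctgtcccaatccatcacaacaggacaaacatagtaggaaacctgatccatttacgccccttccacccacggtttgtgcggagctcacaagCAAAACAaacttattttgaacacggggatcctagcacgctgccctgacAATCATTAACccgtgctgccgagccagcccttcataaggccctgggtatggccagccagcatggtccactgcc
Igfbp2: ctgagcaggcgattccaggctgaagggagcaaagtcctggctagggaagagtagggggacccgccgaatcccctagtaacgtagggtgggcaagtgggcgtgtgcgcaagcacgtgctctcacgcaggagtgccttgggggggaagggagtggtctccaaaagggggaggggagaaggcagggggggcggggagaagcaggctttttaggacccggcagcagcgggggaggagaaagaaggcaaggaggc
Igfbp3: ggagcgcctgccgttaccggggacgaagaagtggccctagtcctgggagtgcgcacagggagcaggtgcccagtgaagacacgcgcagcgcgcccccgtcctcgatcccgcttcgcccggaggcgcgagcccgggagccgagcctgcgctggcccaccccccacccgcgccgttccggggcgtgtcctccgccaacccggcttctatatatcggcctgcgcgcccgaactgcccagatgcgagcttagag

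In the Igfbp1 run, the insulin response element core stood at bases -121 to -115 from the start, and the HNF1 site stood on the opposite strand at -73 to -64. The core was present in 5.46% and the HNF1 site in 0.323% of the 33469 RefSeq promoter windows of the same length. The Igfbp2 and Igfbp3 runs held none of the 5 motifs. Their GC content was 64.0% and 71.6%, against 52.8% for Igfbp1. Among the other 4 members, Igf1 held the insulin response element core at -67 to -61 and Igfbp4 held the TATA box, which 12.9% of all windows hold. A STAT5 site stood in 7.67% and the cyclic AMP response element in 1.59% of all windows, and in no window of the 7 members. The motifs were chosen with these sequences known, and a match is a description of the letters only.

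Albumin, the defining hepatocyte product, was near the top of the scale in every control set and changed by no more than 0.06 log2 in any compound. It does not stand for the other hepatocyte markers, of which 6 of 7 were measured. By the limma test described below, 9 of their 90 values were higher and 13 lower (24.4%), against 9.15% of all probe sets. Apoa1 was higher with 4 compounds and lower with 2, and Fgb was higher with 1 and lower with 5. Array medians lay between 7.42 and 7.51, and arrays of 1 group correlated at 0.9886 to 0.9956 on average, so no array stood apart on these measures. In bulk liver RNA, fewer cells of a type and less RNA per cell cannot be told apart.

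The 7 members were compared with the own control set of each compound, 105 values in all. In limma with Benjamini-Hochberg adjustment over all 15866 probe sets, 34 values passed an adjusted p of 0.05, 12 of them higher and 22 lower, or 32.4%. Over all probe sets and the same 15 comparisons the share was 9.15%, with 4.64% higher and 4.52% lower. Changes of more than 2.5-fold, the study's own criterion, were found for 10 of the 105 values and for 0.417% of all probe sets. The 2 binding proteins Igfbp1 and Igfbp2 were higher wherever they were called, Igf1, Igfals and Igfbp4 were lower wherever they were called, and Ghr and Igfbp3 were called in both directions.

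CIDB, DES, DHEA, ETH and MPy each had 5 of 7 members called, where 13.9%, 15.5%, 17.7%, 23.5% and 6.32% of all probe sets were called. PBO had 3 members called (14.5% of all probe sets), CPA 2 (7.85%), Wy 2 (12.9%), DMN 1 (3.23%) and Nif 1 (8.46%). No member was called by limma with AA (4.66%), CFX (0.0063%), Mcarb (1.07%), PB (1.35%) or TAA (6.4%). CFX, at 0.0063%, had a single called probe set. All these counts read the brighter probe set of a gene. On the dimmer one, Ghr was not called with CIDB, CPA, ETH, MPy or PBO but was called with Nif. Igfbp3 was not called there with DES, ETH, MPy, Nif, PBO or Wy, and Igf1 was called also with CPA and PBO. Across all 105 values, 48 were under an unadjusted limma p of 0.05. The share of all probe sets under that threshold was not computed, so this count cannot be read as a trait of the axis.

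**Figure D1:**
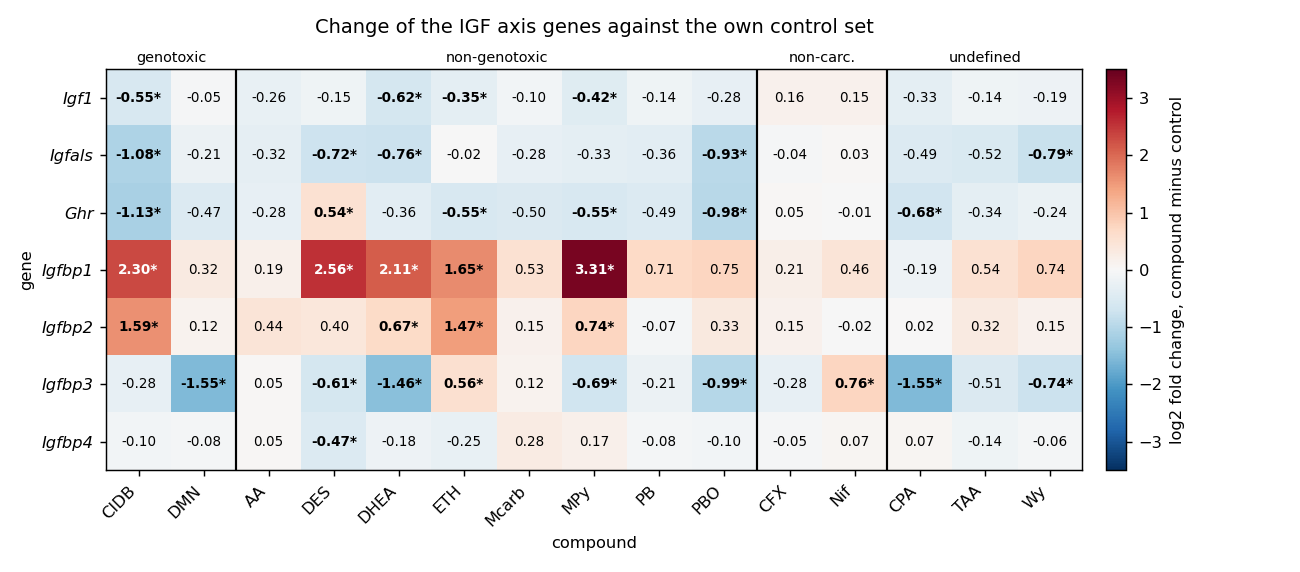
Log2 fold change of each member (rows) for each compound against its own control set (columns, grouped by class), with an asterisk and bold print for an adjusted p under 0.05 in limma and red for higher, blue for lower. Igfbp1 reached 3.31 with MPy, Igfbp3 fell to -1.55 with CPA and DMN, and the columns of AA, Mcarb, PB, CFX and TAA hold no asterisk.

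Vehicle animals gave the background for these genes. In 7 comparisons between control sets of the same vehicle, 0 of 49 member values passed limma's adjusted threshold, where 3.74% of all probe sets did. The smallest adjusted p was 0.181. Unadjusted, 4 of the 49 were under a limma p of 0.05, a threshold for which the share of all probe sets was not computed. These 4 were Igf1 in set 1 against set 2 (0.31) and set 6 (0.26), and Igf1 (0.33) and Igfbp4 (0.29) in set 3 against set 4. The differences ran from -0.52 to 0.6 log2, both of Igfbp1. For the other members they ran from -0.38 (Igfbp2) to 0.42 (Igfbp3). Several of the calls below are of that size, and they are named where they depended on single arrays.

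Igfbp1, the stress and fasting responsive binding protein, rose with 5 compounds and had the largest changes of the axis. In the 3 animals of control set 1 its log2 level was 8.44, 7.76 and 8.38. With MPy it was 11.14, 11.61 and 11.77, all far above the controls, a rise of 3.31 ± 0.48 (SE, n = 3 against 3; 9.93-fold; limma adjusted p = 4.16e-06). All MPy animals were above all DES animals, the next group in the order of the 21 means, while CIDB replicate 2, at 11.4, lay within the MPy range.

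With DES the Igfbp1 levels were 10.9, 10.26 and 10.88 against 8.11, 8.78 and 7.45 in control set 5, a rise of 2.56 ± 0.48 (5.92-fold; limma adjusted p = 8.45e-05). CIDB gave 10.13, 11.4 and 10.09 against 8.51, 7.62 and 8.6 in set 3, a rise of 2.30 ± 0.48 (limma adjusted p = 0.000526). In both, every treated animal was above every control, where 26.8% (DES) and 27.5% (CIDB) of all probe sets did not overlap. DHEA gave a wider spread, 9.29, 10.51 and 11.13, all above set 1, and a rise of 2.11 ± 0.48 (limma adjusted p = 0.00108). ETH gave 10.44, 9.04 and 9.8, all above the set 5 values, and a rise of 1.65 ± 0.48 (limma adjusted p = 0.00841). The ETH call was lost when ETH replicate 1 or set 5 replicate 9 was left out, with adjusted p up to 0.0773.

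The other 10 compounds changed Igfbp1 by -0.19 to 0.75 log2, none of them called. The lowest of these was CPA, with single animals at 7.76, 8.36 and 9.63, and the highest was PBO, with 8.05, 9.46 and 9.08. Igfbp1 had the widest spread of the 7 members, a pooled SD of 0.62 within groups against 0.13 for Igfbp4, so its smaller changes were not detectable with 3 animals a group.

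Igfbp2, which is abundant in fetal liver and low in the adult, rose with 4 compounds, and each of these 4 also raised Igfbp1. CIDB gave 10.32, 10.26 and 9.64 against 8.4, 8.51 and 8.55 in set 3, a rise of 1.59 ± 0.20 (3-fold; limma adjusted p = 3.43e-08). ETH gave 9.52, 10.18 and 9.63 against 8.02, 8.38 and 8.5 in set 5, a rise of 1.47 ± 0.20 (2.77-fold; limma adjusted p = 8.24e-08). These were the 2 highest groups of the 21, and the lowest ETH animal was above every animal of the next group, MPy.

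MPy (8.88, 9.05 and 9.09) and DHEA (8.99, 9.25 and 8.58) gave smaller rises of Igfbp2, 0.74 ± 0.20 and 0.67 ± 0.20, with all animals above the set 1 range of 8.18 to 8.33. The MPy call was lost without MPy replicate 2, MPy replicate 3 or set 1 replicate 4, and the DHEA call without DHEA replicate 2 or set 1 replicate 4. DES, which raised Igfbp1 5.92-fold, gave an Igfbp2 difference of 0.40 that was not called (limma adjusted p = 0.181).

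**Figure D2:**
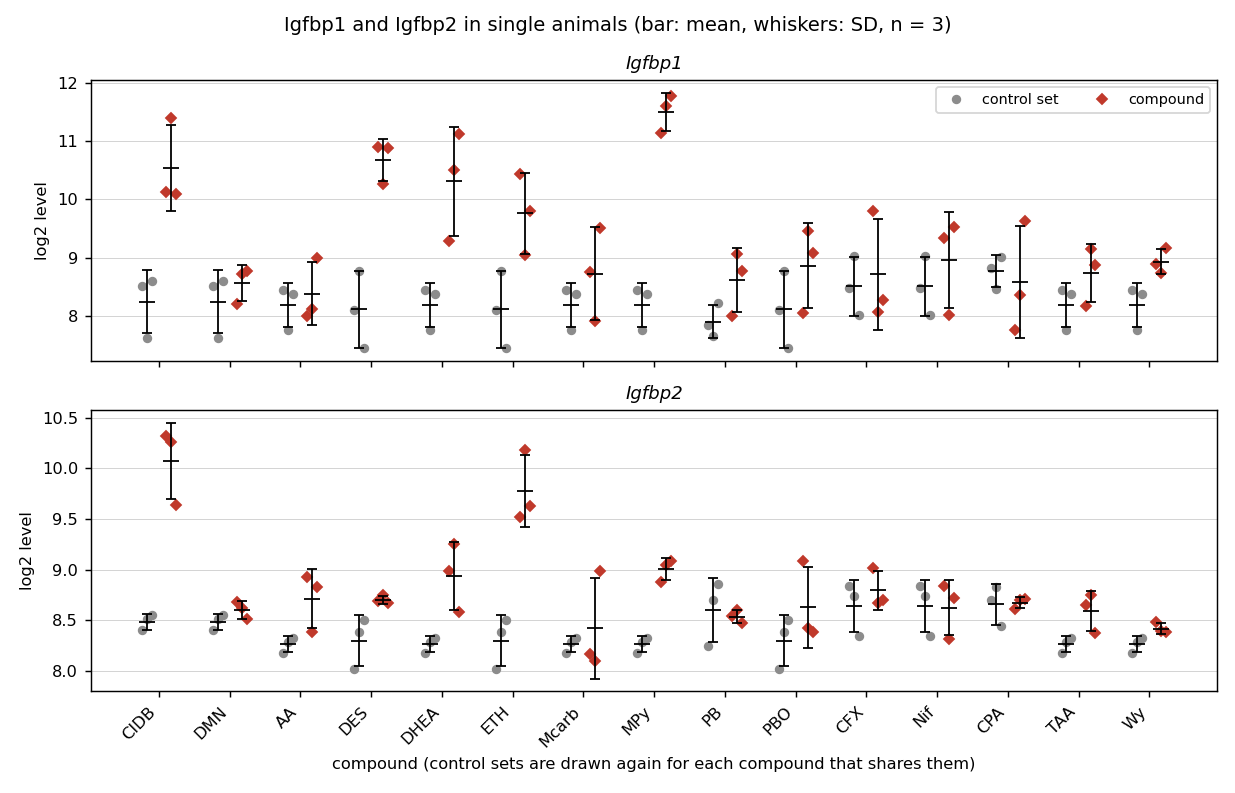
Log2 level of Igfbp1 (upper) and Igfbp2 (lower) in every animal, with compounds as red diamonds beside their control set as grey circles, the bar at the mean and whiskers of 1 SD (n = 3). The MPy animals lie at 11.14 to 11.77 for Igfbp1, and the CIDB and ETH animals at 9.52 to 10.32 for Igfbp2, where no animal of another group reached them.

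Marker genes of other cells moved in the same livers. Over the 21 group means, Igfbp2 had r = 0.7 with the mean of 5 measured biliary markers and r = -0.71 with 3 erythroid markers, as a description over groups that share a laboratory and an array type. With ETH, 3 of 5 biliary markers were higher, among them Krt19 (1.90 log2) and Epcam (0.71), and 4 of 5 macrophage markers were higher and 1 lower (Cd14, -1.29). DHEA, which also raised Igfbp2, had 4 of 5 macrophage markers lower. With MPy none of the 5 was called, and with CIDB 1 was higher and 1 lower. With CIDB, 1 of 5 biliary markers was higher (Epcam, 1.01), and all 3 erythroid markers were lower, Hbb by -4.91 and Alas2 by -2.77. The list means of the erythroid markers were 8.24 to 8.52 in CIDB animals against 11.48 to 12.11 in set 3. A single biliary marker was also higher with MPy and DHEA, and with CPA, PB, TAA and Wy, where Igfbp2 was not called. Epcam was higher with 8 compounds. With CPA all 3 erythroid markers were lower too, the largest fall being -1.23, while Igfbp2 differed by 0.02. With ETH 2 of 3 were lower, and with MPy and DHEA none was called. The part of these markers in the Igfbp2 result was not tested.

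Igf1, the ligand, was lower in 13 of 15 comparisons, and 4 of them passed the test. DHEA animals had 12.9, 13.04 and 12.59 against 13.41, 13.4 and 13.57 in set 1, a difference of -0.62 ± 0.12 (1.53-fold lower; limma adjusted p = 0.000183). CIDB animals had 12.82, 12.98 and 12.81 against 13.44, 13.39 and 13.43 in set 3, a difference of -0.55 ± 0.12 (1.46-fold lower; limma adjusted p = 0.00109). In both, no treated animal reached the control range, where 35.5% (DHEA) and 27.5% (CIDB) of all probe sets did not overlap. Both calls were kept in all 6 fits that left out 1 array.

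The Igf1 differences with MPy (-0.42 ± 0.12; limma adjusted p = 0.0279) and ETH (-0.35 ± 0.12; limma adjusted p = 0.0283) were called with less margin. Each was kept in only 1 of 6 such fits: MPy was lost without any one of its own 3 arrays or set 1 replicates 4 and 6, and ETH without any one of its own 3 or set 5 replicates 7 and 9. With the controls of a vehicle pooled, the Igf1 difference with MPy was -0.23 and the call was lost (limma adjusted p = 0.176). The dimmer Igf1 probe set gave differences of -0.64 with MPy and -0.87 with ETH and also called CPA (-0.61) and PBO (-0.51). On the brighter Igf1 probe set, the 4 compounds that lowered Igf1 were the same 4 that raised Igfbp2. CPA and PBO, also called on the dimmer one, gave Igfbp2 differences of 0.02 and 0.33, neither called. Set 1, shared by DHEA and MPy, had the highest Igf1 mean (13.46) and the lowest Igfbp2 mean (8.27) of the 21 groups. CFX and Nif had the only positive Igf1 differences, 0.16 and 0.15, neither called, and on the dimmer probe set they were -0.07 and 0.05.

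Igfals, which encodes the acid-labile subunit, fell with 5 compounds and rose with none. CIDB gave 10.67, 10.57 and 10.53 against 11.72, 11.77 and 11.52 in set 3, a difference of -1.08 ± 0.23 (2.12-fold lower; limma adjusted p = 0.000486). PBO gave 10.71, 10.64 and 11.14 against 12.01, 11.43 and 11.82 in set 5, a difference of -0.93 ± 0.23 (limma adjusted p = 0.00267). In neither did the animals overlap with their controls, where 27.5% (CIDB) and 26.8% (PBO) of all probe sets did not overlap.

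Wy (-0.79), DHEA (-0.76) and DES (-0.72) also lowered Igfals, each ± 0.23. The Wy call was lost without Wy replicate 2 or set 1 replicate 4, and the DHEA call without DHEA replicate 3 or set 1 replicate 4. The DES call was lost without DES replicate 1 or 2 or set 5 replicate 7 or 9, with adjusted p up to 0.118. Hepatocyte markers were called with all 5 of these compounds, and also with AA, CPA, DMN, ETH and Nif, where Igfals was not called. Of 6 measured, 4 were lower and 0 higher with Wy, 4 lower and 1 higher with DHEA, 2 lower and 1 higher with DES, 1 lower and 2 higher with PBO, and 0 lower and 1 higher with CIDB. With DHEA and Wy the list means were 13.21 to 13.32 and 13.15 to 13.29 against 13.37 to 13.41 in set 1. Over the 21 group means, Igfals had r = -0.06 with the mean of the 6 measured hepatocyte markers. The part of these markers in the Igfals result was not tested. ETH, which lowered Igf1, gave Igfals levels of 11.6, 11.89 and 11.7, a difference of -0.02 (limma adjusted p = 0.958).

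Ghr, the growth hormone receptor, was lower with 5 compounds and higher with 1 on its brighter probe set. CIDB gave 9.61, 9.89 and 9.98 against 11.19, 10.92 and 10.75 in set 3, a difference of -1.13 ± 0.17 (2.18-fold lower; limma adjusted p = 2.27e-06). PBO gave 9.27, 9.64 and 10.22 against 10.93, 10.78 and 10.37 in set 5, a difference of -0.98 ± 0.17 (limma adjusted p = 3.14e-05). CPA gave 9.78, 10.24 and 10.45 against 10.95, 10.55 and 11.02 in set 4, a difference of -0.68 ± 0.17 (limma adjusted p = 0.00663), which was lost without CPA replicate 1. In all 3 the animals lay below their controls, where 27.5% (CIDB), 26.8% (PBO) and 27.1% (CPA) of all probe sets did not overlap.

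ETH and MPy each lowered this Ghr probe set by -0.55 ± 0.17. The ETH call was lost without ETH replicate 1 or set 5 replicate 7 or 8, and the MPy call without MPy replicate 1 or 2 or any array of set 1. DES alone raised Ghr, with 11.32, 11.26 and 11.13 against 10.93, 10.78 and 10.37, a difference of 0.54 ± 0.17 (limma adjusted p = 0.0214) that was lost without DES replicate 1 or 2 or set 5 replicate 9. With the controls of a vehicle pooled, the DES difference was 0.34 and the call was also lost (limma adjusted p = 0.0785).

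The 2 Ghr probe sets did not give the same picture. On the dimmer one, with a mean of 8.92 over all arrays, CIDB differed by 0.02, PBO by 0.21, ETH by 0.24 and MPy by 0.14, none of them called. DES was higher by 1.28 (limma adjusted p = 2.46e-05), CPA was lower by -0.65 (limma adjusted p = 0.0581), and Nif was lower by -1.09 (limma adjusted p = 0.000682). The fall of Ghr with CIDB, PBO, ETH and MPy therefore holds for 1 probe set only, and which transcripts each probe set reads was not tested. Over the 21 group means, the brighter probe set had r = -0.71 with the mean of 5 biliary markers and 0.58 with 3 erythroid markers. The part of these cells in the Ghr result was not tested.

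**Figure D3:**
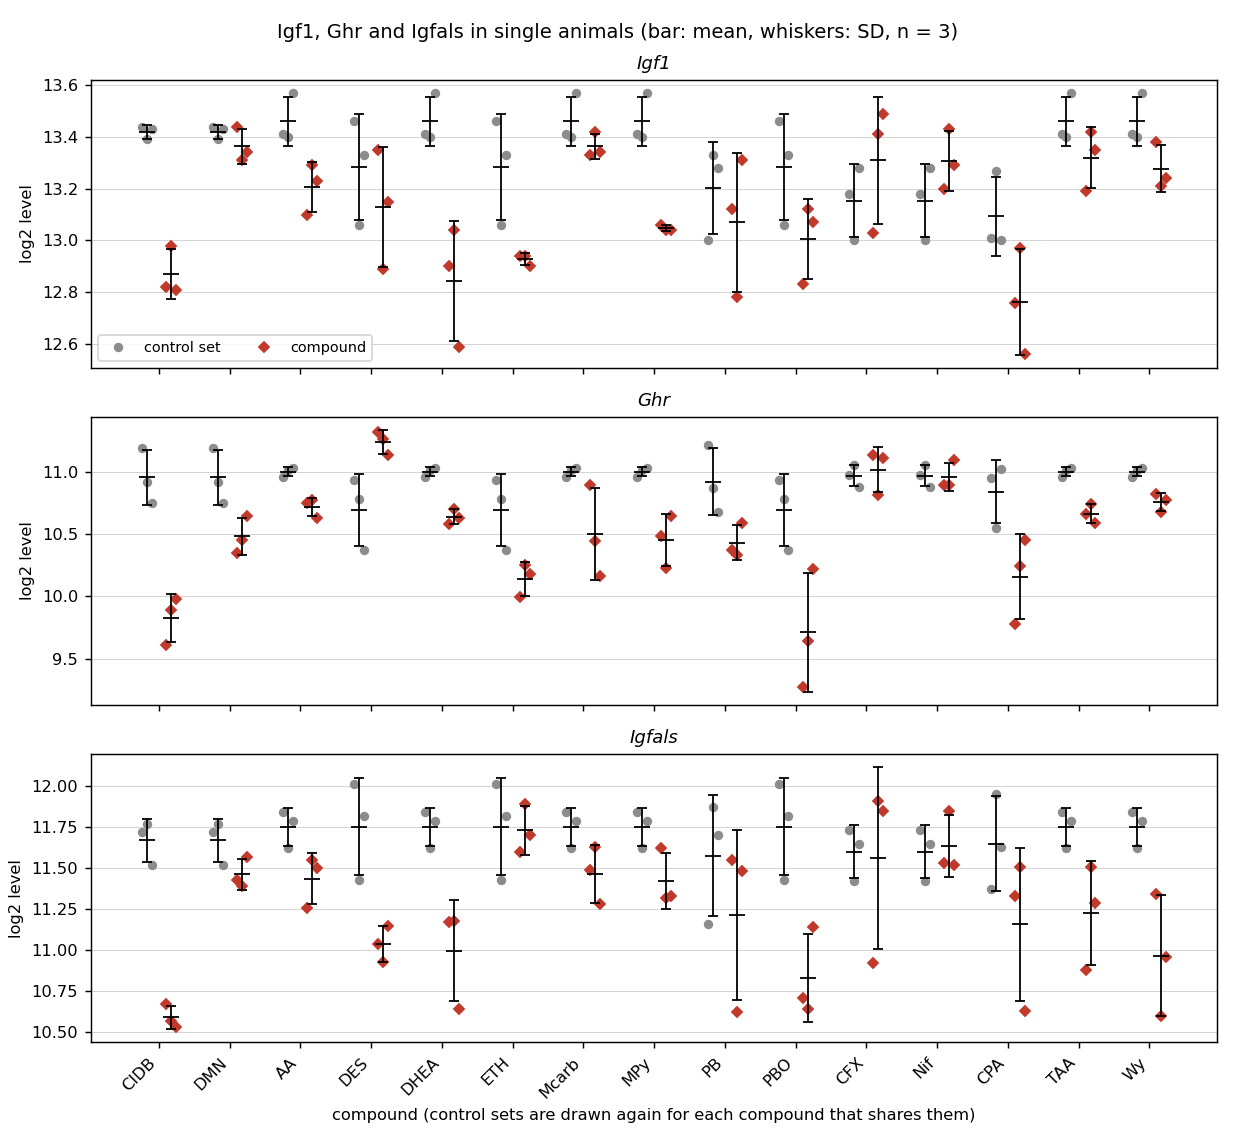
Log2 level of Igf1, Ghr and Igfals (top to bottom) in every animal, compounds as red diamonds beside their control set as grey circles, bars at the mean and whiskers of 1 SD (n = 3). The Ghr panel shows the brighter probe set; on the dimmer one CIDB differed by 0.02. CIDB lies below its controls in all 3 panels, whereas DES lies above them for Ghr (11.13 to 11.32) and below them for Igfals.

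Igfbp3, which encodes the main carrier of IGF-I in blood, had the most calls of the axis: it was lower with 7 compounds and higher with 2. DMN gave 8.33, 8.29 and 8.51 against 9.98, 9.99 and 9.8 in set 3, a difference of -1.55 ± 0.21 (2.93-fold lower; limma adjusted p = 1.28e-06). It was the only member called with DMN. CPA gave 8.51, 8.88 and 7.85 against 10.1, 9.89 and 9.89 in set 4, a difference of -1.55 ± 0.21 (limma adjusted p = 1.07e-06).

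DHEA lowered Igfbp3 to 8.89, 8.92 and 8.24, from 10.25, 10.16 and 10.02 in set 1, a difference of -1.46 ± 0.21 (2.75-fold lower; limma adjusted p = 8.77e-07). PBO gave 8.56, 8.85 and 8.78 against 10.23, 9.67 and 9.26 in set 5, a difference of -0.99 ± 0.21 (limma adjusted p = 0.000604). With all 4 of these compounds every treated animal was below every control. Of all probe sets, 21.1% (DMN), 27.1% (CPA), 35.5% (DHEA) and 26.8% (PBO) did not overlap. On the dimmer Igfbp3 probe set CPA (-1.34), DHEA (-1.18) and DMN (-1.08) were again called, while PBO differed by -0.18.

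Smaller Igfbp3 changes were called for Wy (-0.74), MPy (-0.69) and DES (-0.61), and for Nif (0.76) and ETH (0.56) in the other direction, each ± 0.21. None of these 5 was called on the dimmer probe set, where DES differed by 0.15. The DES and ETH animals overlapped with those of set 5, whose own Igfbp3 levels ran from 9.26 to 10.23. Single arrays decided these calls. Wy was lost without Wy replicate 2 or set 1 replicate 4, and Nif without Nif replicate 1 or 2 or set 2 replicate 11. MPy was lost without MPy replicate 2 or 3 or any array of set 1. DES was lost without DES replicate 1 or 2 or set 5 replicate 7 or 8, and ETH without any one of its own 3 arrays or set 5 replicate 8 or 9. CIDB had 5 other members called, Ghr among them on the brighter probe set only. Its Igfbp3 levels were 9.66, 9.92 and 9.36, a difference of -0.28 (limma adjusted p = 0.44).

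**Figure D4:**
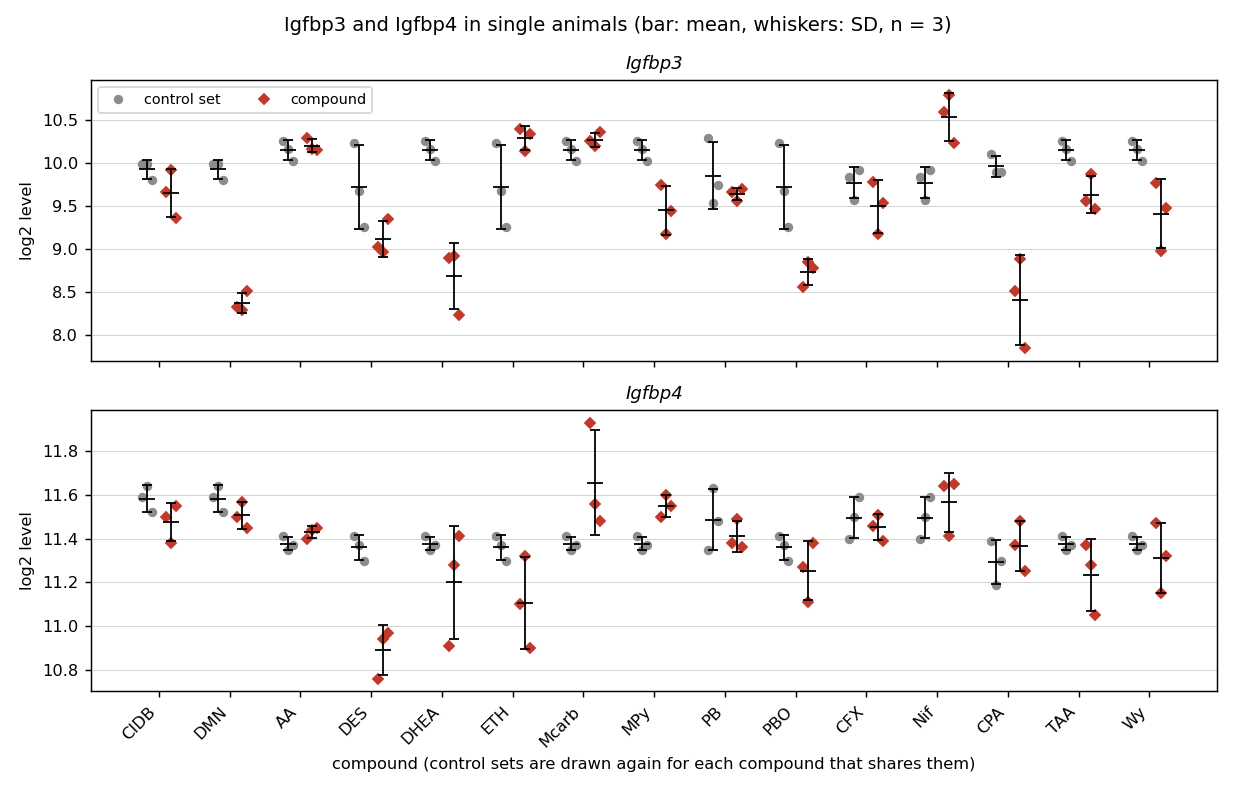
Log2 level of Igfbp3 (upper) and Igfbp4 (lower) in every animal, compounds as red diamonds beside their control set as grey circles, bars at the mean and whiskers of 1 SD (n = 3). Igfbp3 lies at 7.85 to 8.92 in the DMN, CPA and DHEA animals, below their controls, and Igfbp4 stays within a narrow range in most groups.

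Over the 21 group means, Igfbp3 had r = 0.74 with the mean of 8 stellate cell and matrix markers, 0.69 with 4 endothelial markers and 0.59 with 5 macrophage markers, against -0.02 with biliary and 0.1 with lymphocyte markers. With CPA, 4 of 8 stellate and matrix markers were lower and 1 higher (Rgs5, 0.35). Among the lower ones were Col3a1 (-1.59), a fibrillar collagen, and Lrat (-0.97), which esterifies retinol in stellate cells. With DHEA 4 of 8 were lower, Col3a1 by -1.18 and Lrat by -1.01. Of the same 8 markers, 2 were lower with Wy, 1 with DMN and 1 with PBO. With DES 1 was lower and 1 higher, and with MPy 0 were called. Kdr, the endothelial VEGF receptor, was lower with CPA (-0.90), DHEA (-0.79), DMN (-0.77), Wy (-0.71) and PBO (-0.66). All of these lowered Igfbp3 on its brighter probe set, while on the dimmer one Wy (-0.26) and PBO (-0.18) were not called. Of the 4 measured endothelial markers, Kdr was the only one called with CPA, DMN and PBO. It was 1 of 2 lower with DHEA (with Lyve1) and 1 of 2 lower with Wy (with Pecam1). Lyve1, of lymphatic and sinusoidal endothelium, differed by 0.37 with DMN and 0.44 with PBO, neither called, and was higher with DES (0.95).

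Where Igfbp3 was higher on its brighter probe set, Col3a1 and Lrat were higher too: by 0.72 and 0.78 with Nif, and by 0.45 and 0.63 with ETH. They were the only called stellate and matrix markers with Nif, while with ETH Pdgfrb was lower (-0.45). DES differed from this, with Col3a1 higher by 0.42 and Igfbp3 lower by -0.61, and with PBO Col3a1 differed by 0.07. The list means of the stellate and matrix markers were 7.39 to 7.51 in CPA animals against 7.96 to 8.05 in set 4, and 7.5 to 7.67 in DHEA animals against 8.01 to 8.13 in set 1. For DMN they were 7.76 to 7.84 against 7.86 to 8.13 in set 3. The part of these cells in the Igfbp3 result was not tested.

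**Figure D5:**
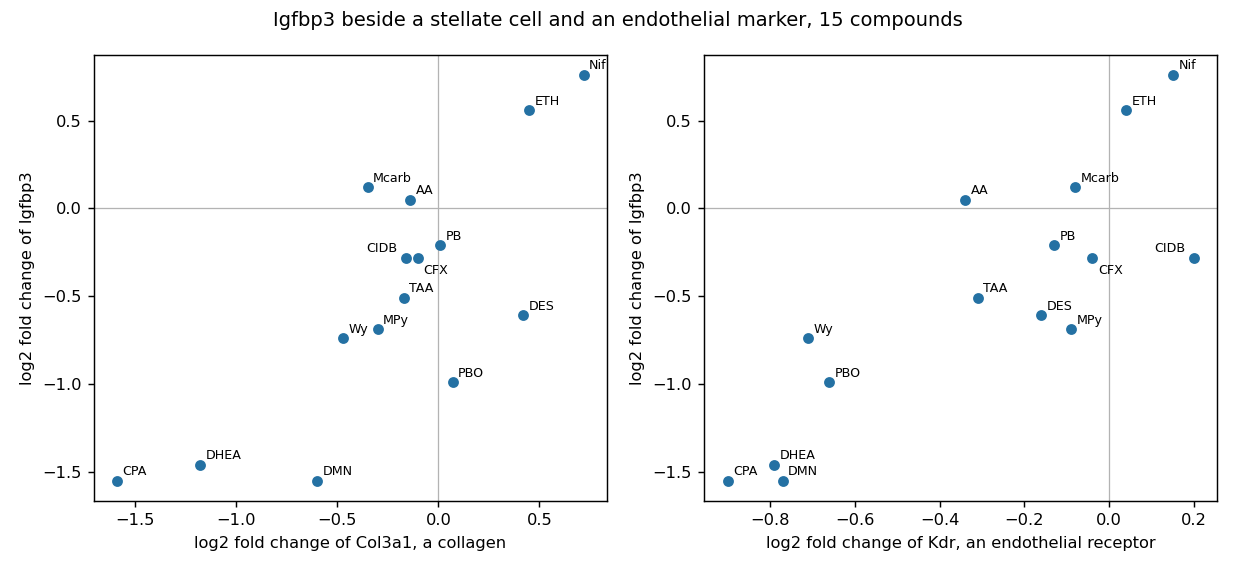
Log2 fold change of Igfbp3 (vertical) against that of Col3a1 (left) and Kdr (right), 1 point for each of the 15 compounds against its own control set; points of compounds that share a control set are not independent. CPA, DHEA and DMN lie at the lower left of both panels, while DES has Igfbp3 at -0.61 with Col3a1 at 0.42. Col3a1 and Kdr are each 1 chosen gene of their lists, and with DMN 1 of 8 stellate and matrix markers was called. Igfbp3 is its brighter probe set. On the dimmer one PBO differed by -0.18, Wy by -0.26 and DES by 0.15, none of them called.

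Igfbp4, an inhibitory binding protein made widely in the liver, was the steadiest member. DES gave 10.76, 10.94 and 10.97 against 11.41, 11.37 and 11.3 in set 5, a difference of -0.47 ± 0.10 (1.38-fold lower; limma adjusted p = 0.00103). The animals did not overlap with their controls, as was so for 26.8% of all probe sets with DES. The other 14 compounds differed by -0.25 to 0.28, none of them called.

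In the order of the 21 group means, neighbouring groups nearly always overlapped. Of the 20 neighbouring pairs of each gene, 1 did not overlap for Ghr (ETH above CIDB), 1 for Igfbp1 (MPy above DES), 1 for Igfbp2 (ETH above MPy) and 1 for Igfbp3 (DES above PBO), and 0 for Igf1, Igfals and Igfbp4. The share of such pairs over all probe sets was not computed, so these counts cannot be read as a trait of the members. On the dimmer Ghr probe set the order of that pair was reversed, with a mean of 9.15 for CIDB and 8.15 for ETH. Igf1 was highest in set 1 (13.46 ± 0.09, SD, n = 3) and lowest with CPA (12.77 ± 0.21). Igfbp3 ran from 10.53 ± 0.28 with Nif to 8.38 ± 0.12 with DMN.

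Direct comparisons were made for 6 pairs of compounds that shared both a control set and a dosing time, which gave 42 member values. AA and Mcarb also share both, but they were kept with the analogs set side by side below and were not compared. The doses within the compared pairs were unequal too. By limma 18 of the 42 values were called, 9 higher and 9 lower, where 11.6% of all probe sets were called over the same pairs. The comparison of the 2 genotoxic carcinogens, CIDB and DMN, called 6 of 7 members (12.9% of all probe sets). CIDB was above DMN for Igfbp1 (1.97), Igfbp2 (1.47) and Igfbp3 (1.27), and below it for Igfals (-0.88), Ghr (-0.65) and Igf1 (-0.50). Igfbp4 differed by -0.03, with a 95% interval of -0.24 to 0.19. The Ghr call in this pair was lost without CIDB replicate 1 and with the mean over both probe sets (-0.22; limma adjusted p = 0.516). On the dimmer probe set the CIDB mean, 9.15, was above that of DMN, 8.93.

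DES and PBO, both given for 3 days, differed in Ghr (1.53 ± 0.17 higher with DES; limma adjusted p = 2.07e-09), with 3 of 7 members called (12.2% of all probe sets). Igfbp1 was higher with DES by 1.82 and Igfbp4 lower by -0.36. The Igfbp1 call was lost without PBO replicate 1, and the Igfbp4 call without DES replicate 1 or PBO replicate 1 or 3. DHEA against Mcarb called 4 members (20.5%): Igfbp3 (-1.58), Igf1 (-0.52), Igfbp4 (-0.46) and Igfbp1 (1.59), the last lost without DHEA replicate 3 or Mcarb replicate 2. AA against DHEA called 3 (13.3%): Igfbp3 (1.51), Igf1 (0.36) and Igfbp1 (-1.93). The Igf1 call was lost without AA replicate 2 or 3 or DHEA replicate 1 or 3, and the Igfbp1 call without DHEA replicate 3. MPy against TAA called Igfbp1 alone (2.78; 2.11%), and CFX against Nif called Igfbp3 alone (-1.04; 8.34%).

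Acetamide and its sulfur analog thioacetamide were given at different doses and for different times, so their values are only set side by side, with the carbamate ester Mcarb. Igfbp1 differed from set 1 by 0.19 with AA, 0.54 with TAA and 0.53 with Mcarb. Igfbp3 differed by 0.05, -0.51 and 0.12, and Igfals by -0.32, -0.52 and -0.28. None of these was called.

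Over compounds, the classes were compared with the compound as the unit, 8 NGC, 2 GC and 2 NC. Of 21 member values, 0 passed limma's adjusted threshold, where 0.0819% of all probe sets were called for NGC against GC, 0.0189% for NGC against NC and 0.0126% for all carcinogens against NC. Unadjusted, 2 of the 21 were under a limma p of 0.05, a threshold for which the share of all probe sets was not computed. Both were Igf1: its mean change was -0.29 ± 0.17 (SD, n = 8) in NGC against 0.15 in NC on the brighter probe set, a difference of -0.44 (exact two-sided permutation p = 0.0222, the smallest this design allows, and 0.233 after adjustment over the 21). Against NC, all 10 carcinogens differed by -0.44 (exact permutation p = 0.0152, also the smallest possible). AA, DHEA, Mcarb and MPy were read against set 1, which had the highest Igf1 mean of the 21 groups (13.46). Both NC compounds were read against set 2 (13.15). The treated means of CFX (13.31) and Nif (13.3) lay between those of the NGC compounds Mcarb (13.36) and AA (13.2). The part of the control levels in the Igf1 class difference was not tested. Both GC compounds share control set 3 and both NC compounds share set 2, so compounds of a class are not independent. On simulated data with these shared controls the limma class test made many more false calls than with independent compounds, so its p-values are too small and its counts over all probe sets are not reliable.

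Other genes of the pathway were taken from 4 lists with 45 measured genes. Of their 675 values 68 were called (10.1%), 28 higher and 40 lower, close to the 9.15% of all probe sets. Among 12 other IGF ligands, receptors, binding proteins and proteases, 7 values were higher and 16 lower (12.8%). Htra1, a protease that cleaves IGF binding proteins, was lower with 6 compounds, by -0.30 (ETH) to -0.53 (DHEA). Igf2r, the clearance receptor of IGF-II, was higher with 5, by 0.34 (CPA and Wy) to 0.54 (MPy). Igfbp7 was lower with CPA (-1.04), DHEA (-0.87) and Wy (-0.43). Adamts1 was higher with ETH and Nif (0.49 each) and lower with DHEA (-0.42) and TAA (-0.45).

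Of 13 measured genes of growth hormone receptor signalling, 15 values were higher and 7 lower (11.3%). Stat5b, which carries the receptor's signal to Igf1, was higher with AA (0.49), DMN (0.32) and DES (0.31) and lower with ETH (-0.30). Stat3 was higher with CIDB (0.58) and DMN (0.41) and lower with PBO (-0.51) and Wy (-0.34). Grb14, an adaptor that inhibits the insulin receptor, was higher with ETH (0.41), CIDB (0.40), Nif (0.36) and Wy (0.30). Ptpn1, a phosphatase of the insulin and growth hormone pathways, was higher with CIDB (0.23) and lower with TAA (-0.30) and MPy (-0.25). Prlr, the prolactin receptor, was higher with DES alone (2.45). Socs2, a feedback inhibitor induced by growth hormone, differed by -1.5 to 0.77 and was called with no compound. Prlr and Socs2 were picked after their values were seen.

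The 11 measured genes of insulin and IGF signal transduction had the fewest calls, 2 higher and 8 lower (6.06%). Rps6kb1, the S6 kinase, was lower with ETH (-0.64), PBO (-0.47) and DES (-0.37). Akt2 was lower with AA (-0.30) and CPA (-0.28), and Pik3r1 (-1.02) and Irs2 (-0.57) were lower with Nif. Of 9 insulin and fasting responsive genes, 4 values were higher and 9 lower (9.63%). Pck1, the gluconeogenic enzyme, was lower with DHEA (-0.96), PBO (-0.89) and Wy (-0.81). Cpt1a, which brings fatty acids into mitochondria, was higher with Wy (1.5) and DHEA (1.32). Acly and Srebf1, of fatty acid synthesis, were lower with CIDB (-1.27 and -0.85), Acly also with MPy (-0.96) and DES (-0.95) and Srebf1 with PBO (-1.04).

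The genes whose 21 group means ran most like each member, with all control sets included, were named by Pearson's r as a description. Igf1 was closest to Afm (0.81), Enpep (0.79) and Lima1 (0.77), and Igfals to Gls2 (0.9), Mro (0.86) and Rgn (0.85). Ghr was closest to Oaz1 (0.84), Tmcc2 (0.81) and Sds (0.8). Igfbp1 ran most like 3 ribosomal protein genes, Rpl5 (0.86), Rps3a (0.85) and Rpl23 (0.81). Igfbp2 was closest to Vxn (0.89), Nek6 (0.87) and Rps27l (0.85), and Igfbp3 to Gucy1a1 (0.88), Ptn (0.87) and Pam (0.86). Igfbp4 was closest to C1s (0.78), B2m (0.75) and Plg (0.74). Among the members themselves r ran highest for Igfbp1 with Igfbp2 (0.62) and Igf1 with Ghr (0.61), and lowest for Igf1 with Igfbp2 (-0.63). Igfbp1 and its chromosomal neighbour Igfbp3 had r = -0.21.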

How the data were processed

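Liver RNA of 63 rats was hybridised to Affymetrix RAE230A arrays, 1 array per animal. Per the study's methods, Affymetrix Microarray Suite (MAS) made the CEL files, and the authors applied RMA in the affy package, which gave 1 deposited log2 value for each of 15866 probe sets, and these were used as they stood. The version of that package and a genome build are not given in the sources used here. Each of 12783 probe sets had 1 symbol in the supplied annotation, 312 had several and 2771 had none. A gene was its probe set with the highest mean. The 7 members and all gene lists were chosen with earlier results of these data known.

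All 63 arrays entered a single limma fit (version 3.58.1, R 4.3.3) of 21 group means, with 42 residual degrees of freedom. Benjamini-Hochberg adjustment ran over every probe set within a comparison, with a call at an adjusted p under 0.05. Errors are standard errors of this fit unless named SD. The number of arrays limits the precision. For classes, mean log2 fold changes of compounds were compared with limma and by exact permutation.

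Named genes were all members; up to 4 genes a pathway list, those called in most compounds; up to 2 marker genes a list and compound; and the 3 genes most like each member. Some further genes were picked after their values were seen and are named as such, or serve as values beside a named gene. Replicate numbers are shared in 8 comparisons, where deviations of same-numbered arrays correlated at -0.25 to 0.2, so they were not taken as pairs. Marker lists covered hepatocytes, macrophages, stellate cells and matrix, endothelium, biliary cells, lymphocytes and erythroid cells; 3 of 90 lymphocyte values were called, all higher. Scripts were tested on simulated data. Sequences are RefSeq, GRCr8, and all 7 members matched. Figures were drawn with matplotlib 3.10.9.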

Additional observations from a re-analysis of the deposited data

Results flagged for a closer look

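The Ghr change with DES, 0.54 log2, stood apart from the other classed carcinogens. Among the 8 non-genotoxic carcinogens its gap to the next compound was 0.54 of the whole range, and among all 10 carcinogens 0.49, each just above Dixon's critical value. Both come from the same value, and both groups leave out CFX (0.05) and Nif (-0.01), the compounds nearest to DES. Chance alone marks about 1 in 20 such groups, and 14 were examined. The dimmer Ghr probe set also gave a rise with DES, of 1.28. With the controls of a vehicle pooled, Ghr with DES differed by 0.34 and was not called (limma adjusted p = 0.0785). By the labels, DES animals were dosed for 3 days and their controls for 14, so compound and dosing time cannot be told apart, while the study's methods describe controls matched in time. Which of these holds was not settled.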

How the results depend on the processing

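The count of 34 called member values for compounds against their control sets was 28 to 35 under quantile normalization, removal of dim probe sets, an intensity trend, array weights, the mean over probe sets, pooled controls or a fit of the 6 compared arrays. The study's fold criterion of 2.5 without a test left 10. Leaving out 1 array at a time gave 26 to 35 for compounds, 16 to 19 for pairs of compounds (18 with all arrays), 59 to 70 for other pathway genes (68), and 0 for control sets and for classes. Between control sets, 2 values were called with array weights and 2 with the mean over probe sets, against 0. Array weights gave 92 for other pathway genes.

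The other probe set of Igf1, Ghr and Igfbp3, an alternative chosen after seeing the data, gave 26 calls and turned 5 directions: Ghr with CIDB (0.02), ETH (0.24), MPy (0.14) and PBO (0.21), and Igfbp3 with DES (0.15). The cause was not tested. With the replicate number as a block in fits of 6 arrays, CPA and PB together had 2 members called, as in the fit of all arrays, and 1 without the block. Pairs of compounds had 16 with the block. The numbers are not known to pair the animals.

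With 3 animals a group the smallest changes were not detectable, above all for Igfbp1, and the treated animals were selected by histopathology.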
